A study of Mus musculus with 15 samples.

Results

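The respiratory chain and the ATP synthase of mitochondria were followed through 87 of the 21025 gene entries counted in CD8-selected lymph node cells of mice. The entries were chosen by symbol alone, without any measured value. The rule took symbols that begin with Ndufa, Ndufb, Ndufc, Ndufs, Ndufv, Uqcr, Atp5, Cox4, Cox5, Cox6, Cox7 or Cox8, together with Sdha, Sdhb, Sdhc, Sdhd and Cyc1, and left out the assembly factors whose symbols begin with Ndufaf. By known role, 36 entries are subunits of complex I, 4 of complex II, 8 of complex III, 20 of complex IV and 15 of complex V, the ATP synthase. Ndufa4 and its paralogue Ndufa4l2 were placed in complex IV, where the Ndufa4 protein is found despite its name. The other 4 entries carry a fitting symbol but encode no subunit. They are Atp5s (now Dmac2l), Atp5sl (now Dmac2), Cox4nb (now Emc8, a protein of the endoplasmic reticulum) and the non-coding entry Ndufs5-ps, and they were kept apart from the complexes. The filter on low counts was passed by 80 of the 87 entries, of which 77 are subunits. The 7 that did not pass it were Cox4i2, Cox7a1, Cox7b2, Cox8b, Cox8c, Ndufa4l2 and Ndufs5-ps.

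Complex I takes electrons from NADH and complex II from succinate, and both pass them through coenzyme Q to complex III. Cytochrome c then carries them to complex IV, which reduces oxygen. Complexes I, III and IV pump protons, and the ATP synthase uses the return of the protons to make ATP. Most subunits are encoded in the nucleus, as all members here are, whereas a few central subunits of complexes I, III, IV and V are encoded in mitochondrial DNA. Resting T cells are known to rely largely on oxidative phosphorylation, activated effector T cells raise glycolysis as well, and memory CD8 T cells are known for a large respiratory reserve.

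The 15 untreated samples came from mice of 15 weeks and fall into 3 genotypes with 5 libraries each, namely C57BL/6N mice (written WT), cS5Alo and cS5Ahi. Each WT library was made from the pooled lymph nodes of 2 to 3 mice. The labels do not explain the names cS5Alo and cS5Ahi. From what is known of the study they are read as lines that carry an active STAT5A, a transcription factor that acts below cytokine receptors, at a lower and a higher level. The promoter that drives it and the number of founder lines are not given in the sources used here.

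The unit CPM scales each gene's reads by its library's total after TMM normalisation. Stat5a itself averaged 82.8 ± 10.2 CPM over the WT libraries, 108 ± 7.66 CPM over those of cS5Alo and 488 ± 90.7 CPM over those of cS5Ahi (SD, n = 5 each). Each library held 12177642 to 33948416 reads in genes. Reads outside genes made up 39.8% in WT 3, 40.8% in WT 4 and 36.8% in cS5Ahi 4, and 23.0 to 30.2% in the other 12 libraries. All cS5Ahi libraries were on 1 flow cell and all others on another, so flow cell and genotype cannot be told apart in either comparison with cS5Ahi. The description of cS5Ahi 1 names cS5Alo, whereas its title, its genotype and its Stat5a level of 436 CPM go with cS5Ahi. The CD8 T cell markers were present in all libraries, with Cd8a at 2159 to 2724 CPM. Markers of other cells varied between cS5Ahi and WT by edgeR's test, which called 7.25% of all genes lower and 6.88% higher. Lower were 6 of 8 B cell, 4 of 7 dendritic cell, 2 of 2 erythroid and 2 of 4 stroma and endothelium markers. Cd22, a B cell marker, had a log2 fold change of 0.47 without a call. Of 5 natural killer cell markers 3 were higher, and 1 had a log2 fold change of -1.85 without a call. None of 6 macrophage and monocyte markers was called, but all 6 were below 0, with a median log2 fold change of -1.38. Their median standard error was 0.68. Of 4 CD4 T cell markers all 4 were below 0 and 1 was called lower, Cd4, at a log2 fold change of -3.04. WT 5 had 84.7 CPM of Cd4, and the groups overlapped. In cS5Ahi against cS5Alo, 4.87% of all genes were called higher and 3.77% lower. Of 6 CD8 T cell markers, Cd3d and Cd3g were lower there, at log2 fold changes of -0.37 and -0.35. The other 4 were above 0. None of the 6 was called in cS5Ahi against WT. Lower than in cS5Alo were also 5 of 8 B cell, 1 of 7 dendritic cell, 1 of 2 erythroid and 1 of 4 stroma and endothelium markers. Higher than in cS5Alo were 3 of 5 natural killer cell markers. Salivary gland transcripts summed to 605 to 5821 CPM in the WT libraries, against 72.7 to 4263 CPM for cS5Alo and 45.3 to 941 CPM for cS5Ahi.

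The promoters of nuclear respiratory genes are known for sites of nuclear respiratory factor 1 (NRF1), which reads a palindrome and binds as a dimer. RefSeq windows from 250 bases before to 50 bases after the annotated start were at hand for 69 promoters of 64 of the tested subunit genes, on build GRCm38.p6, which is not the mm9 build of the counts. The full palindrome of 10 bases, searched on both strands, was present in 5 of the 69 windows (7.25%) and in 319 of 32851 windows of all genes (0.971%). The 5 sites are printed because they are the members that hold the whole NRF1 palindrome, which is printed in capitals with 10 bases on either side.
Atp5k, membrane subunit e of the ATP synthase, chr5:108434430-108434459, minus strand: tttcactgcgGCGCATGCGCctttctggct
Atp5g2, a c ring gene of the ATP synthase, chr15:102671070-102671099, minus strand: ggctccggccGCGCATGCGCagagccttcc
Cox6a1, general isoform of complex IV subunit 6a, chr5:115349101-115349130, minus strand: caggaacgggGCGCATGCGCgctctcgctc
Ndufa11, accessory subunit of complex I, chr17:56717692-56717721, plus strand: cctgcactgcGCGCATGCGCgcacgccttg
Uqcrc1, core protein of complex III, chr9:108936668-108936697, plus strand: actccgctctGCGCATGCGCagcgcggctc
The palindrome began 50 bases before the annotated start in Atp5k, 42 in Atp5g2, 162 in Cox6a1 and 60 in Ndufa11, and lay after the start in Uqcrc1. A looser form that allows any base at the sixth position, and so contains the palindrome, was in 18 of 69 windows (26.1%) against 4.60% of all windows. The letters CCGGAAG, read by ETS factors such as GABP, were in 16 windows (23.2% against 8.86%), and the YY1 motif in 4 windows (5.80% against 0.633%), all of complex I genes. CACGTG, the E-box that MYC reads, was in 7 windows (10.1% against 7.15%). The STAT letters TTCNNNGAA were in 6 windows (8.70% against 8.30%), a share close to that of all windows. These matches describe letters in a window and are no evidence of binding.

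For 5 of the 6 genes that passed the test in a comparison given further on, RefSeq held a promoter window, and the 150 bases before the start are shown with any motif match in capitals. Cox6c is the sixth.
Ndufa12 (complex I), chr10:94198885-94199034, plus strand: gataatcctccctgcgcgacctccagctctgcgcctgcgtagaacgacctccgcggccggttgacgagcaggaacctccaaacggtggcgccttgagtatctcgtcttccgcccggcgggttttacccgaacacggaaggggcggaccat
Atp5d (complex V), chr10:80142125-80142274, plus strand: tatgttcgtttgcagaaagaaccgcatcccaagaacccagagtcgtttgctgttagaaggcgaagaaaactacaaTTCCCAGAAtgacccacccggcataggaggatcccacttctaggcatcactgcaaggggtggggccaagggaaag
Ndufs4 (complex I), chr13:114388095-114388244, minus strand: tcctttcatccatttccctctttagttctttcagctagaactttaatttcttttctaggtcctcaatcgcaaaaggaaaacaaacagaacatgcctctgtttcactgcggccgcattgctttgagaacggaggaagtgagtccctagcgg
Cox7c (complex IV), chr13:86046796-86046945, minus strand: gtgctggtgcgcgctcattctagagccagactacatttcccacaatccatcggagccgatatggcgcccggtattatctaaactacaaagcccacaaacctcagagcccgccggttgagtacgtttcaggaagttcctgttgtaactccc
Atp5j (complex V), chr16:84834977-84835126, minus strand: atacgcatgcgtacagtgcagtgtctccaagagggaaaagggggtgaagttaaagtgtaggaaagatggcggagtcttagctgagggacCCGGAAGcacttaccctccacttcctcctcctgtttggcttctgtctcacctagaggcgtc
In the 150 bases shown, Atp5d had 1 STAT match and Atp5j 1 ETS match, and the other 3 had no match to the letters searched, although Ndufs4 held the YY1 letters after its start. RefSeq gave Atp5d and Atp5j 2 promoters each. The one of Atp5d that is not printed overlaps the one shown and holds the same STAT match. The one of Atp5j that is not printed held no match in its 150 bases or its full window, so the ETS match stands before 1 of its 2 starts.

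Levels were compared between genes per transcript length, as RPKM, the CPM divided by the transcript length in kilobases. Over all 15 libraries the highest mean was that of Atp5h, peripheral stalk subunit d of the ATP synthase, with 733 RPKM. Uqcrh, the hinge protein of complex III, followed with 607 RPKM, Atp5e, a small subunit of the central stalk, with 601 RPKM, and Cox8a of complex IV with 514 RPKM. Ndufa3 led complex I with 480 RPKM. Subunits of 1 complex thus did not share a level. In complex I the range ran from 4.68 RPKM for Ndufs5 to the 480 RPKM of Ndufa3, and Ndufv1, the subunit that binds NADH, had 16.3 RPKM. Reads that match several places may not have been counted, and Ndufs5 has a pseudogene copy among the entries, so its low level is uncertain.

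Complex II was the most even. Sdhb, its iron-sulfur subunit, had 39.8 RPKM, and Sdhd, a membrane anchor, 38.8 RPKM. Sdhc, the other anchor, had 36.2 RPKM and Sdha, the flavoprotein that oxidises succinate, 35.3 RPKM. These 4 means lay closer together than the libraries of a single gene, since Sdhd alone ran from 27.6 to 50.1 RPKM.

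Several subunits of complex IV exist as isoforms for different tissues, and the cells had the general isoform in each pair. Cox4i1, the general isoform of subunit 4, had 343 RPKM and the lung isoform Cox4i2 0.494 RPKM. Cox6a1 had 350 RPKM and the heart and muscle isoform Cox6a2 0.608 RPKM. Cox6b1 had 257 RPKM and the testis isoform Cox6b2 1.41 RPKM. Cox7a2 had 124 RPKM and its relative Cox7a2l, which is found in supercomplexes, 263 RPKM, against 0.783 RPKM for the heart and muscle isoform Cox7a1. Cox8a, at the 514 RPKM given above, stood beside 0.0189 RPKM for Cox8b and no read for Cox8c. Ndufa4 had 411 RPKM and Ndufa4l2, which low oxygen is known to induce, 0.00318 RPKM from the reads of 1 library, cS5Ahi 3. Cox7b2 had no read in any library. The heart and muscle isoforms Cox6a2, Cox7a1 and Cox8b were thus near 0. Of 7 striated muscle markers, Myh4 and Myh1 had no read, and Tnnt3 was the one that passed the filter, at 0.526 to 3.97 CPM.

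The ring of the ATP synthase through which protons pass is made of subunit c, which 3 genes encode as the same mature protein. Atp5g2 had 476 RPKM, Atp5g3 352 RPKM and Atp5g1 29.1 RPKM. The length used for Atp5g1 is that of its longest transcript, 4715 bases, which lowers its value per length. In CPM, which takes no account of length, the 3 genes averaged 326, 223 and 131 CPM in WT in that order.

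**Figure D1:**
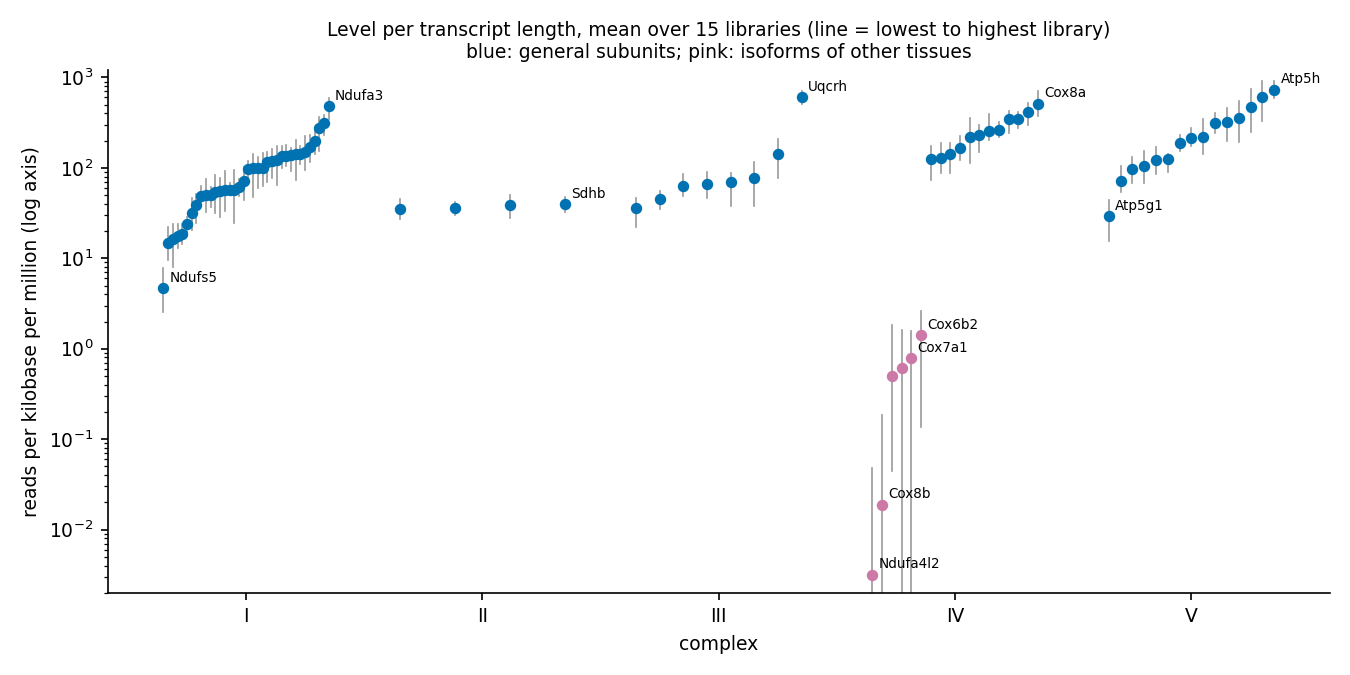
Each point is the mean level of 1 subunit gene over 15 libraries, in RPKM on a log axis, and each line runs from the lowest to the highest library; lines that reach the lower edge go to 0. General subunits lie between 4.68 and 733 RPKM, the isoforms of other tissues at 1.41 RPKM or less, and Cox7b2 and Cox8c, without reads, are not drawn.

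Summed over the 77 measured subunits, the transcripts made up 0.927 ± 0.118% of the reads in genes in WT. The share was 1.02 ± 0.111% in cS5Alo and 0.957 ± 0.0680% in cS5Ahi (SD, n = 5 each). These shares are of unscaled reads. The 3 groups overlapped: WT libraries had 0.779 to 1.05%, cS5Alo libraries 0.829 to 1.12% and cS5Ahi libraries 0.874 to 1.06%. The libraries of 1 group differed more than the group means did. In these bulk libraries a lower level can mean fewer cells of a type or less RNA of these genes per cell, and the counts cannot tell these apart.

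The subunits tended to share their lowest and highest libraries. WT 3 was the lowest WT library for 48 of 77 subunits (62.3%), against 23.3% of all genes tested. In cS5Alo the lowest was library 5, for 58 of 77 subunits (75.3%, against 32.8% of all genes). In cS5Ahi, library 2 was lowest for 34 subunits and library 4 for 29, or 44.2 and 37.7% against 14.9 and 21.5% of all genes. The highest library was WT 1 for 34 subunits (44.2%, against 20.1% of all genes), cS5Alo 4 for 43 (55.8 against 16.1%) and cS5Ahi 3 for 42 (54.5 against 25.8%).

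The mean log2 CPM of the 36 complex I genes shows this order. It was 6.01, 5.73, 5.49, 5.69 and 6.00 in WT 1 to 5, and 6.11, 6.12, 6.10, 6.27 and 5.66 in cS5Alo 1 to 5. In cS5Ahi 1 to 5 it was 6.07, 5.78, 6.18, 5.89 and 6.00. WT 3 and cS5Alo 5 were low, the groups overlapped, and the same 2 libraries were lowest in their groups in complexes III, IV and V. Complex II had the smallest SD of the 5 complexes in each group, with complex IV close to it in cS5Ahi (0.0982 against 0.105): WT libraries lay at 5.95 to 6.17, cS5Alo libraries at 6.12 to 6.34 and cS5Ahi libraries at 6.04 to 6.29.

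Ribosomal protein genes shared these lowest libraries, as did the mean over the markers of the selected cells. The mean log2 CPM of 86 cytosolic ribosomal protein genes was 9.62 in WT 3 against 9.88 to 10.15 in the other WT libraries, and 9.80 in cS5Alo 5 against 10.18 to 10.36 in the other cS5Alo libraries. For 75 mitochondrial ribosomal protein genes it was 4.65 in WT 3 and 4.84 in cS5Alo 5, again the lowest of each group. The mean log2 CPM of the 6 CD8 T cell markers was lowest in WT 3 (9.76), cS5Alo 5 (9.96) and cS5Ahi 2 (9.86). It was highest in WT 1 (10.16), cS5Alo 4 (10.05) and cS5Ahi 3 (10.14). These were the libraries most often lowest and highest for the subunits. Single markers differed. Cd8b1, Cd3d and Cd3g were lowest in the same libraries as the mean, and Lck in WT 3 and cS5Alo 5. Cd8a was lowest in WT 3 but not in cS5Alo 5 or cS5Ahi 2. Cd3e was highest of cS5Alo in library 5 (1234 CPM) and lowest of cS5Ahi in library 3 (962 CPM). Reads outside genes and salivary gland transcripts shared this order in some libraries and not in others. Outside genes lay 39.8% of the reads of WT 3 and 36.8% of those of cS5Ahi 4, which were often lowest. cS5Alo 4, most often highest in its group, had 23.0%, the smallest share, but cS5Alo 5 had 28.4%. Salivary gland transcripts summed to 4263 CPM in cS5Alo 5 and 941 CPM in cS5Ahi 4, the highest of their groups. WT 3 had 1022 CPM, whereas WT 1, the highest WT library for the subunits, had 3074 CPM. The part of these genes, markers and reads in the order of the libraries was not tested. Fat and striated muscle, tissues rich in mitochondria that lie near lymph nodes, left little RNA: the 7 fat markers summed to at most 0.873 CPM and the 7 muscle markers to at most 4.29 CPM in any library. Of the fat markers, Lep and Cidea had no read.

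**Figure D2:**
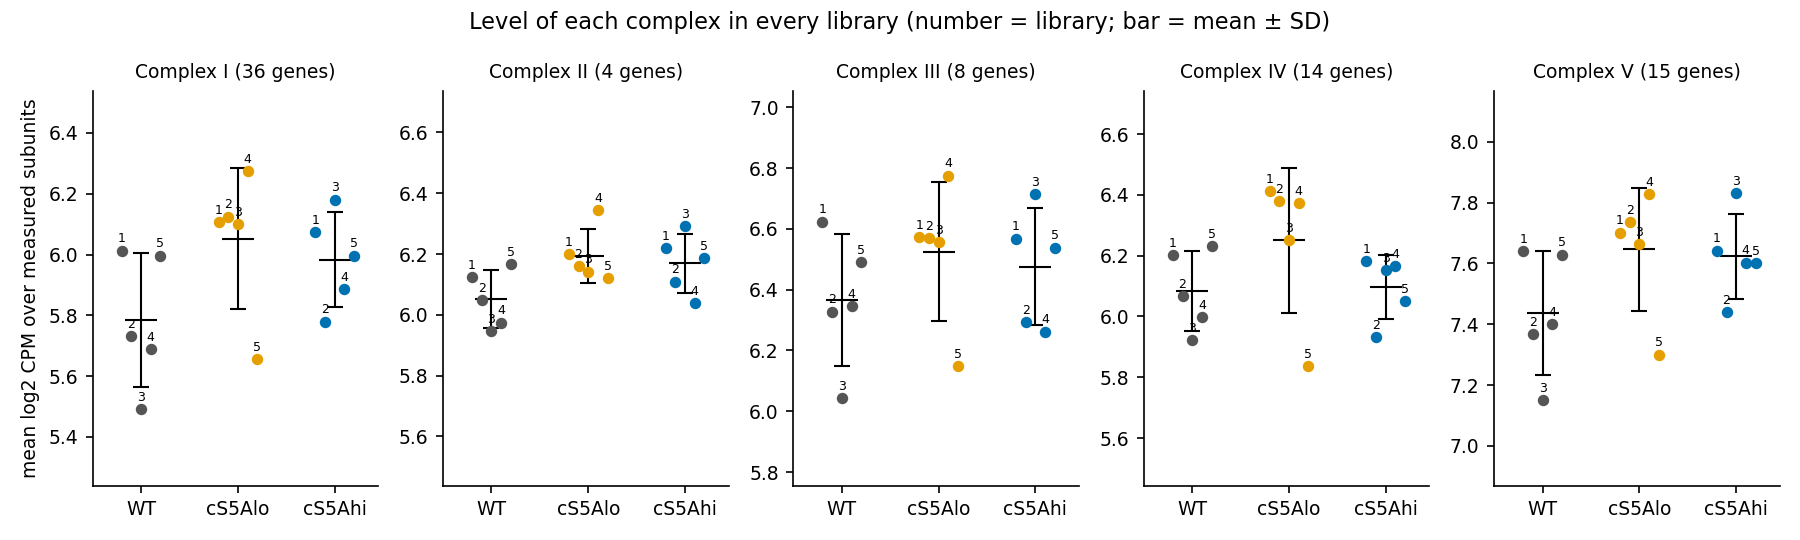
Points give the mean log2 CPM over the measured subunits of each complex in every library, labelled by library number, and bars give the mean and SD of the 5 libraries of a genotype; the 5 panels start at different levels but span the same range. Library 3 is lowest in WT in all 5 panels, and library 5 is lowest in cS5Alo in all 5.

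The comparison of cS5Ahi with WT asks which subunits differ in the line with the high Stat5a level. Ndufa12, an accessory subunit of complex I, and Atp5d, the delta subunit in the central stalk of the ATP synthase, were higher in cS5Ahi, by 1.37-fold and 1.52-fold. No member was lower, against 7.25% of all genes. These 2 of 80 members (2.5%) compare with 14.1% of the 11979 genes tested, or 6.88% called higher, a lower share that was not tested against that of all genes. In size, 76 of 80 fitted differences were within 1.5-fold, as were 81.2% of all genes. The median log2 fold change of the members was 0.12, against 0.00029 for all genes, and 59 of 80 were above 0, against 50.1% of all genes.

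Ndufa12 had 93.4, 80.3, 82.1, 101.6 and 106 CPM in WT 1 to 5 and 140, 108, 116, 149 and 123 CPM in cS5Ahi 1 to 5. Every cS5Ahi library was above every WT library. The log2 fold change was 0.46 ± 0.13 (SE), with an adjusted p of 0.0233 by edgeR's quasi-likelihood test. The share of all genes with cS5Ahi libraries wholly above the WT libraries was 5.98%, and 2 of 80 members were among them. Leaving out WT 2, WT 3, cS5Ahi 1 or cS5Ahi 4 ended the call of Ndufa12, with adjusted p of 0.0539, 0.0659, 0.0639 and 0.0620.

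Atp5d had 64.9, 82.9, 62.7, 79.2 and 108 CPM in WT and 100.4, 102, 142, 131 and 128 CPM in cS5Ahi. Only WT 5 reached into the cS5Ahi range, above cS5Ahi 1 and 2. This was a log2 fold change of 0.60 ± 0.16, with an adjusted p of 0.0137 by edgeR's test. cS5Alo lay between the groups at 92.5 ± 17.9 CPM (SD, n = 5). Leaving out any single library kept the call of Atp5d.

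Without WT 3 and WT 4, the WT libraries with the most reads outside genes, neither gene passed the test, at log2 fold changes of 0.44 for Ndufa12 (adjusted p = 0.0862 by edgeR) and 0.50 for Atp5d (adjusted p = 0.0980 by edgeR), and the median of the members was 0.02. With the mean log2 level of the B cell markers as a covariate the log2 fold changes were 0.51 and 0.61, no smaller than without it, and the adjusted p by edgeR were 0.302 and 0.261. That level differs between the genotypes, at 3.10 to 4.98 in WT and 1.89 to 3.50 in cS5Ahi, and a fit with it called 3.24% of all genes.

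By complex, the 36 subunits of complex I had a median log2 fold change of 0.18 in cS5Ahi against WT, with 28 above 0 and 1 called. Complex III had a median of 0.11 and no call among 8, and complex V 0.13 and 1 call among 15. Complex IV stood at 0.01, with 8 of 14 above 0, and this median was below 0 in 15 of 27 alternatives, among them scaling by library size alone (-0.08). In complex II, Sdhb was the one member with no overlap, at 45.0, 41.5, 37.4, 37.4 and 43.9 CPM in WT 1 to 5 and 49.4, 45.1, 54.8, 45.1 and 51.3 CPM in cS5Ahi. The log2 fold change was 0.26 ± 0.10, and it did not pass edgeR's quasi-likelihood test (adjusted p = 0.0870). Sdhc had 111 ± 14.8 and 119 ± 7.33 CPM, Sdha 99.7 ± 21.4 and 98.4 ± 12.9 CPM, and Sdhd 45.0 ± 12.3 and 47.3 ± 8.63 CPM in WT and cS5Ahi (SD, n = 5 each).

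A further 3 members, named here after their values were seen, came near the threshold. Ndufb9 of complex I had a log2 fold change of 0.56 (adjusted p = 0.0556), Ndufc1 of complex I 0.52 (0.0604) and Cox5a of complex IV 0.62 (0.0760), all by edgeR's test. The muscle isoform Cox6a2 had a fitted log2 fold change of -2.32 ± 0.80 (adjusted p = 0.0624), but from 0.238 to 1.05 CPM in WT and 0 to 0.318 CPM in cS5Ahi, a level of few reads.

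**Figure D3:**
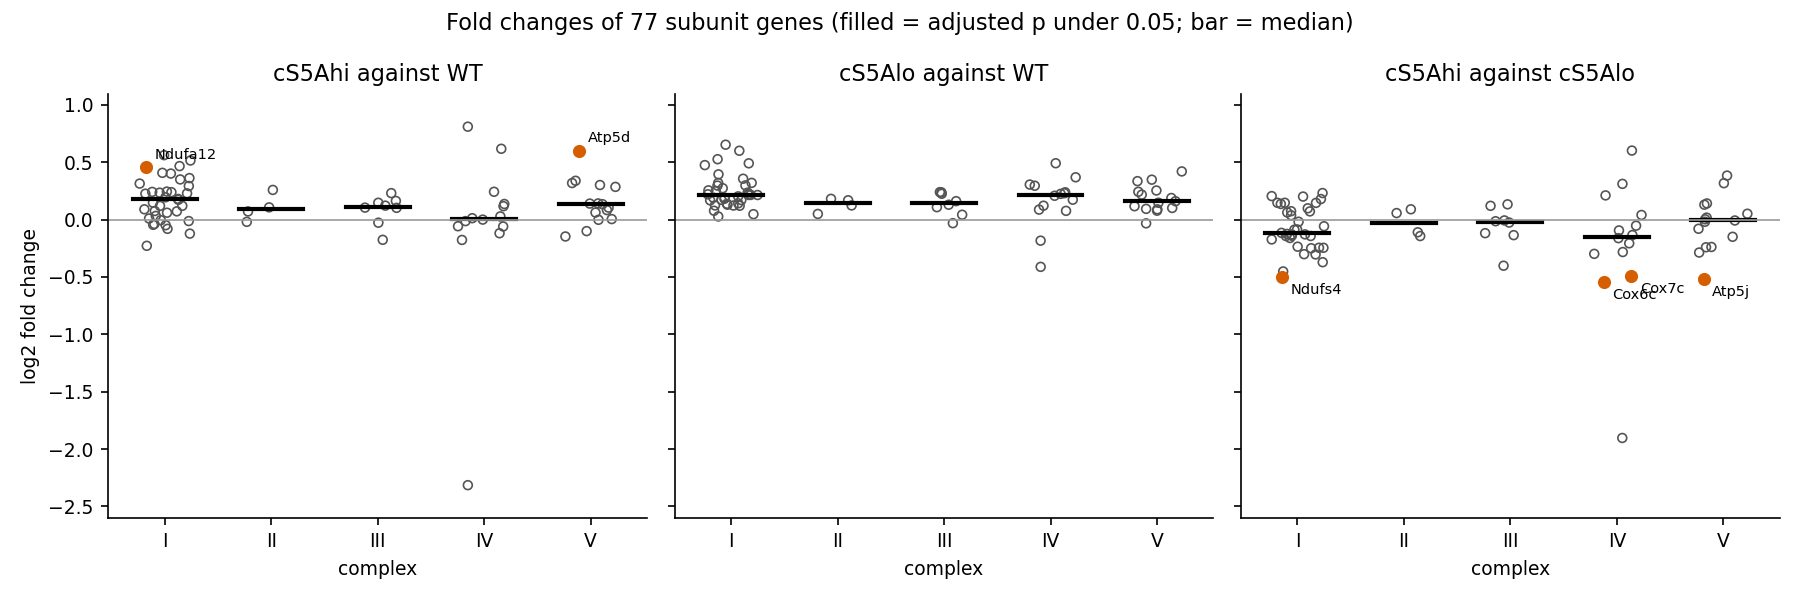
Each circle is the log2 fold change of 1 subunit gene by complex in 1 of the 3 comparisons, filled where edgeR's adjusted p was under 0.05, with a bar at the median of the complex. Filled circles are Ndufa12 and Atp5d in cS5Ahi against WT and Ndufs4, Cox6c, Cox7c and Atp5j in cS5Ahi against cS5Alo; cS5Alo against WT has none.

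The comparison of cS5Alo with WT gave no call among the 80 members, nor among all 11979 genes (0%), by edgeR's quasi-likelihood test. At an unadjusted p under 0.05 there were 13 members, all higher in cS5Alo, beside 11.3% of all genes and 5.37% in the higher direction. DESeq2 called no member either, and 0.743% of all genes. What the members shared was direction: 76 of 80 fitted differences were above 0, against 49.9% of all genes, with a median of 0.20 against -0.0003. All 36 subunits of complex I were above 0, with a median of 0.22. The medians of complexes II, III, IV and V were 0.15, 0.15, 0.22 and 0.16. Cytosolic ribosomal protein genes had a median of 0.23 in this comparison and mitochondrial ones 0.17. Without WT 3 and WT 4 the median of the members was 0.08, and with the share of reads outside genes as a covariate it was 0.08 as well. Among libraries of lane 3 alone, WT 3, 4 and 5 against all cS5Alo, it was 0.24. The comparison shares its WT libraries with that of cS5Ahi against WT.

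Ndufb2, an accessory subunit of complex I that is named here after its values were seen, was the sole member without overlap between cS5Alo and WT (0.993% of all genes lay wholly higher). It had 22.0, 20.8, 15.2, 20.2 and 20.8 CPM in WT 1 to 5 and 32.6, 28.4, 29.8, 41.8 and 23.2 CPM in cS5Alo 1 to 5. The log2 fold change was 0.65 ± 0.18, but the adjusted p of edgeR's test was 0.256. Of the 2 most abundant genes of the ATP synthase by CPM, Atp5h had 428 ± 43.2 CPM in WT and 475 ± 71.8 CPM in cS5Alo, and Atp5c1, the gamma subunit of the rotor, 339 ± 34.7 and 405 ± 48.5 CPM (SD, n = 5 each).

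The comparison of cS5Ahi with cS5Alo sets the higher against the lower Stat5a level. In cS5Ahi 4 genes were lower: Cox6c and Cox7c, accessory subunits of complex IV, Ndufs4, an accessory subunit of complex I whose loss in mice is known to cause a Leigh-like brain disease, and Atp5j, coupling factor 6 in the peripheral stalk of the ATP synthase. They differed by 0.685-fold, 0.711-fold, 0.706-fold and 0.697-fold in that order. No member was higher, against 4.87% of all genes. These 4 of 80 members (5%) compare with 8.64% of all genes called and with 3.77% called lower, a share near the background. The median of the members was -0.09, with 29 of 80 above 0, against -0.0055 and 49.2% for all genes.

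Cox6c had 91.8, 94.9, 115, 110.1 and 91.7 CPM in cS5Alo 1 to 5 and 84.4, 67.4, 61.1, 68.0 and 63.6 CPM in cS5Ahi 1 to 5. All cS5Ahi libraries lay below all cS5Alo libraries, as for 4.9% of all genes and for 2 of 80 members. WT lay in between and overlapped both groups, at 66.0 to 92.4 CPM. The log2 fold change was -0.55 ± 0.12, with an adjusted p of 0.00730 by edgeR's test. It kept its call in all 27 alternatives, with adjusted p from 0.000430 to 0.0261.

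Ndufs4 had 30.9, 29.8, 38.8, 40.4 and 39.3 CPM in cS5Alo and 29.6, 21.9, 24.3, 27.1 and 23.5 CPM in cS5Ahi. The groups did not overlap, but cS5Ahi 1 lay just below cS5Alo 2. Its log2 fold change was -0.50 ± 0.14 (adjusted p = 0.0330, edgeR). Atp5j had 62.8, 60.1, 83.9, 83.2 and 66.0 CPM in cS5Alo and 64.9, 45.8, 49.6, 43.5 and 44.2 CPM in cS5Ahi, where library 1 stood within the cS5Alo range. Its log2 fold change was -0.52 ± 0.14 (adjusted p = 0.0269, edgeR). Cox7c had 82.8, 86.1, 94.0, 101 and 62.0 CPM in cS5Alo and 73.4, 55.4, 67.8, 49.1 and 57.6 CPM in cS5Ahi, with cS5Alo 5 among the cS5Ahi libraries. Its log2 fold change was -0.49 ± 0.15 (adjusted p = 0.0450, edgeR), and WT was as low as cS5Ahi, at 60.7 ± 11.2 against 60.6 ± 9.80 CPM (SD, n = 5 each).

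These 3 calls depended on single libraries. That of Ndufs4 was lost without cS5Alo 3, 4 or 5 or cS5Ahi 2, 3 or 5 (adjusted p up to 0.0946), and that of Atp5j without cS5Alo 3 or 4 or cS5Ahi 2, 3, 4 or 5 (up to 0.0874). Cox7c was lost in 15 of 27 alternatives, with the highest adjusted p, 0.272, under the B cell covariate, where its log2 fold change was -0.49. With the replicate number as a block Cox6c was the 1 call left, and the adjusted p of Ndufs4, Cox7c and Atp5j were 0.0704, 0.0752 and 0.0689. Their log2 fold changes under the block were -0.50, -0.49 and -0.52, as without it.

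Of the 4 genes lower in cS5Ahi, Cox7c was highest in WT 1 (78.3 CPM) and lowest in WT 3 (47.3 CPM), as the subunits often were, and the other 3 differed from that order. WT 1 and WT 5, high for most subunits, had 24.4 and 22.7 CPM of Ndufs4, whereas WT 2, 3 and 4 had 34.6, 30.4 and 36.0 CPM. Cox6c stood at 69.1 and 66.0 CPM in WT 1 and 5 and at 90.7, 71.2 and 92.4 CPM in WT 2, 3 and 4. Atp5j ran the same way, with 45.5 and 44.7 CPM against 63.9, 50.1 and 61.7 CPM. In these 3 genes WT 1 and 5 were thus the lowest WT libraries. Atp5g2, a c ring gene, ran the other way, with 547 and 449 CPM in WT 1 and 5 and 215, 181 and 239 CPM in WT 2, 3 and 4.

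**Figure D4:**
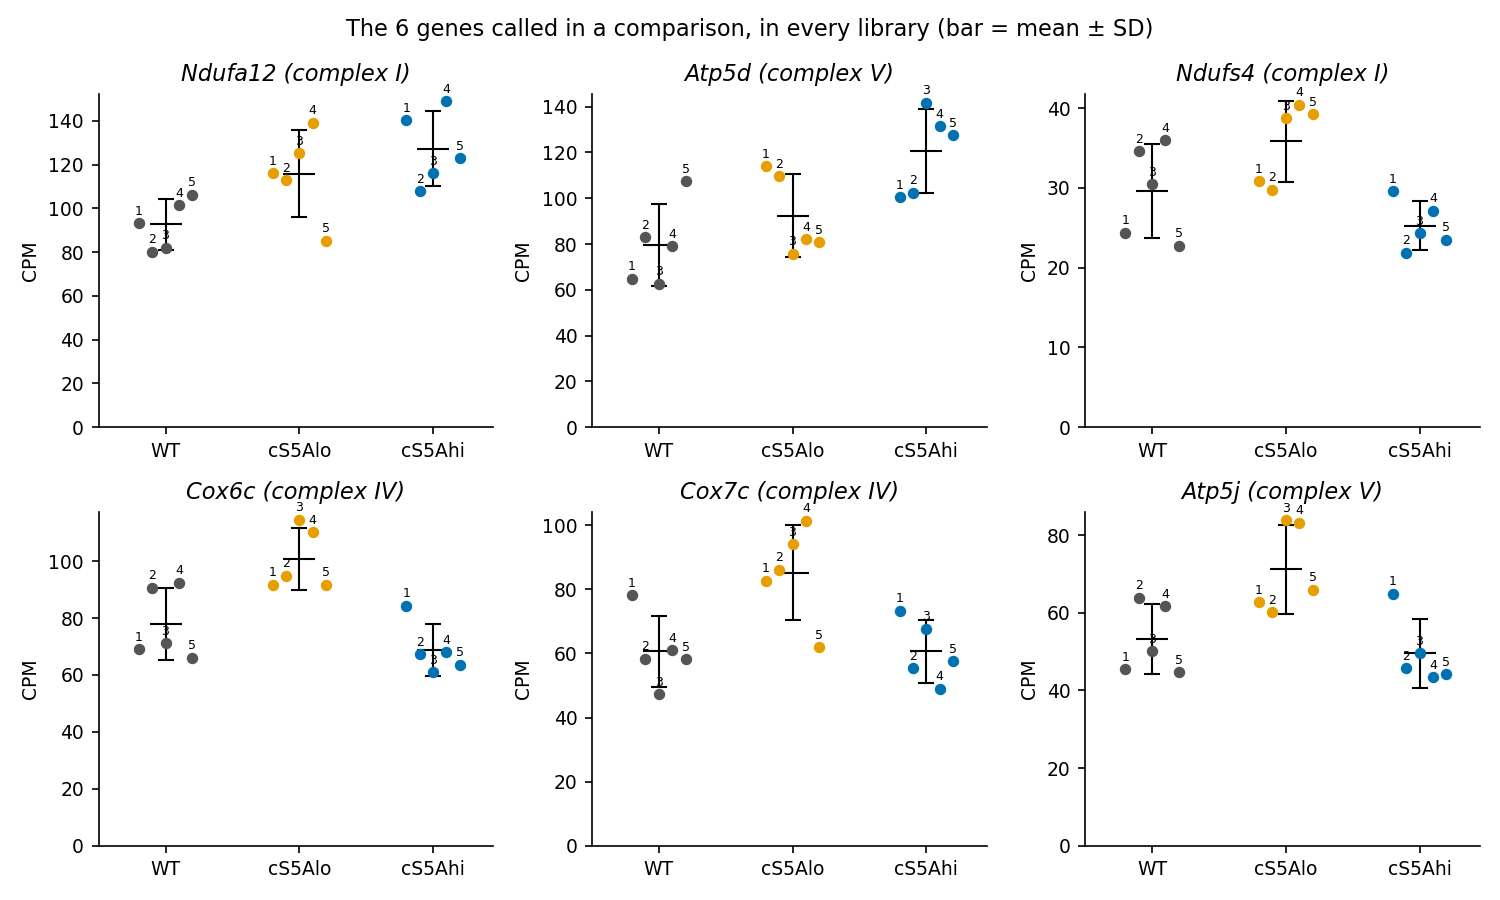
CPM in every library, labelled by library number, for the 6 genes called in a comparison, with the mean and SD of each genotype. Ndufa12 and Atp5d are highest in cS5Ahi, and Ndufs4, Cox6c, Cox7c and Atp5j are highest in cS5Alo, at means of 35.8, 101, 85.3 and 71.2 CPM.

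Across the 3 genotypes, the mean CPM was highest in cS5Alo for 48 of 77 subunits, in cS5Ahi for 28 and in WT for 1, the muscle isoform Cox6a2 with its few reads. The mean was lowest in WT for 53, in cS5Ahi for 21 and in cS5Alo for 3. In complex IV the lowest mean fell to cS5Ahi for 7 of 14 subunits and to WT for 6, whereas in complex I it fell to WT for 28 of 36. The median coefficient of variation of the subunits was 21.5% in WT, 17.4% in cS5Alo and 15.7% in cS5Ahi, close to the 22.6, 16.8 and 14.9% of all genes.

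The genes around the respiratory chain were read from lists drawn up with earlier results of these data known. Beside them stand the shares of all genes, 6.88% called higher and 7.25% lower in cS5Ahi against WT and 4.87% and 3.77% in cS5Ahi against cS5Alo. Of 16 measured assembly factors of complex I, 1 (6.25%) was higher in cS5Ahi than in WT, Ndufaf5, at 13.5 against 8.82 CPM (log2 fold change 0.61 ± 0.18). Lyrm2, another assembly factor of complex I, was lower in cS5Ahi than in cS5Alo, at 26.0 against 37.0 CPM. Of 6 assembly factors of complex III, Uqcc2 was higher in cS5Ahi than in WT without overlap, at 46.9 against 31.3 CPM. None of the 4 assembly factors of complex II, 21 of complex IV and 3 of complex V passed the test in any comparison, nor did 18 genes for coenzyme Q and cytochrome c or 9 for adenine nucleotide and phosphate transport. At an unadjusted p under 0.05, 1, 1, 1, 0 and 1 of these 5 lists' genes differed between cS5Ahi and WT, in that order, against 26.6% of all genes.

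Among 13 genes that transcribe and maintain mitochondrial DNA, Tefm, the elongation factor of mitochondrial transcription, was higher in cS5Ahi than in either other group. The level was 7.33 ± 1.43 CPM for WT, 10.2 ± 1.75 CPM for cS5Alo and 16.0 ± 1.51 CPM for cS5Ahi (SD, n = 5 each). The log2 fold change was 1.12 ± 0.16 against WT (adjusted p = 6.48e-05, edgeR) and 0.65 ± 0.16 against cS5Alo (adjusted p = 0.0122), without overlap in either. Its difference between cS5Alo and WT did not pass the test. Among 11 regulators of mitochondrial content, Myc was higher in cS5Ahi, at 262 CPM against 178 CPM in WT and 189 CPM in cS5Alo. Ppargc1a, the coactivator known for driving mitochondrial biogenesis, was higher in cS5Ahi than in cS5Alo but at few reads, with 1.78 against 0.280 CPM, and did not pass the test against WT.

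The tricarboxylic acid cycle, which supplies NADH and succinate, had 2 of 17 genes (11.8%, against 14.1% of all genes called in either direction) higher in cS5Ahi than in WT, Suclg2 (61.3 against 45.3 CPM) and Idh3g (242 against 197 CPM). Of 19 glycolysis genes, 6 were higher and 1 lower in cS5Ahi than in WT, with a median log2 fold change of 0.21, and 5 were higher and 1 lower than in cS5Alo, with a median of 0.25. The list includes the glucose transporter Slc2a1, which is 1 of the 6 higher than in WT. Pfkp, a phosphofructokinase, had 57.5 ± 5.78 CPM in WT and 93.6 ± 9.36 CPM in cS5Ahi (SD, n = 5 each). Ldhb, a lactate dehydrogenase subunit, was the 1 lower gene, with 2.34 ± 0.435 CPM in cS5Ahi against 13.2 ± 13.4 CPM for WT. WT 5 had 37.0 CPM of Ldhb, and the other WT libraries averaged 7.31 ± 1.94 CPM (SD, n = 4), with a log2 fold change of -1.64 in place of -2.51 when WT 5 was left out, still called. Gapdh had the highest fold of the genes called higher against cS5Alo, at 188 ± 70.2 against 86.0 ± 19.9 CPM. WT had 122 ± 22.3 CPM of Gapdh, and cS5Ahi did not pass edgeR's test against it (log2 fold change 0.62, adjusted p = 0.0589). The fitted log2 fold change of cS5Alo against WT was -0.51, without a call, and cS5Ahi 4 alone had 302 CPM. The called share was 36.8% for glycolysis beside 2.5% for the respiratory chain members and 14.1% for all genes in cS5Ahi against WT; the difference between the lists was not tested.

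Ribosomal protein genes, which shared the lowest WT and cS5Alo libraries with the subunits, had 7 of 86 cytosolic (8.14%) and 4 of 75 mitochondrial members (5.33%) higher and none lower in cS5Ahi than in WT, shares near the 6.88% of all genes called higher. Rpl13 and Mrpl19 had the smallest adjusted p of each list, 0.0209 and 0.00278 by edgeR's test. Their medians were 0.23 and 0.12, against 0.12 for the respiratory chain members. In cS5Ahi against cS5Alo, Mrps33 of the mitochondrial list was lower, and no gene of that list was higher.

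**Figure D5:**
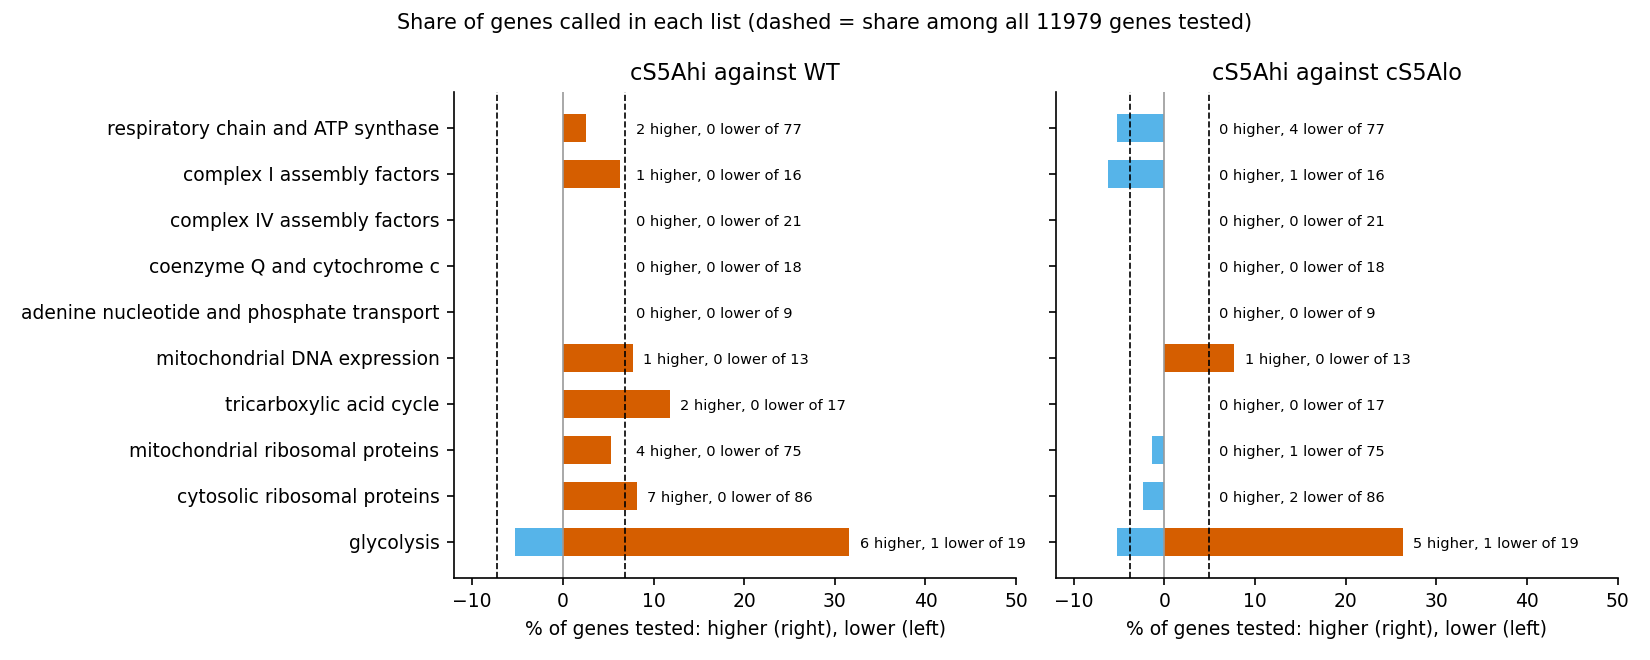
Bars give the percentage of the tested genes of each list that were called higher (to the right of 0) or lower (to the left) in 2 comparisons, and dashed lines the same percentages among all genes tested. The respiratory chain and ATP synthase bar stays inside the dashed lines in cS5Ahi against WT, at 2 of 77 subunits higher, whereas glycolysis reaches 6 of 19. In cS5Ahi against cS5Alo it passes the lower dashed line, at 4 of 77 subunits (5.19%) against 3.77%.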

How the data were processed

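Polyadenylated RNA of CD8-selected lymph node cells was measured in 15 libraries, 5 for each of 3 genotypes, grouped by title and genotype. The deposited files hold counts of reads per gene, which the authors had not normalised. Per the submitters' processing notes, cutadapt, TopHat 1.4.1 and HTSeq 0.6.1p1 were used with build mm9. Whether reads were counted by strand is not stated in these sources. The 5 summary entries of each file stayed out of library sizes, and reads outside genes made up 23.0 to 40.8%. Flow cell and lane were read from the labels of the files.

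Counts were scaled with TMM factors in edgeR 4.0.16 (R 4.3.3) after filterByExpr with a minimum count of 10 and a minimum total of 15. This kept 11979 genes, with a common biological coefficient of variation of 0.234. One robust quasi-likelihood fit over all 15 libraries gave the 3 comparisons. Genes with a p under 0.05 after Benjamini-Hochberg adjustment over all genes tested are those called. Log2 CPM used a prior count of 2. Standard errors were taken from the fold change and its F statistic. The fit was tested on simulated counts. Levels per length used the longest GENCODE transcript linked to an entry's RefSeq accessions, for 86 of 87 members. All 87 members matched a RefSeq symbol. RefSeq promoter windows were of build GRCm38.p6.

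The members, gene lists and tests were chosen with earlier results of these data known. Named genes were, for each complex and comparison, the called members with up to 5 of the smallest adjusted p, or, where there was no call, the 2 members with the highest CPM, the isoform families, the 4 complex II subunits, and up to 2 called members of each other list and comparison. No number of the labels links libraries of different groups to a mouse or day: deviations of same-numbered libraries from their group means correlated between -0.318 and 0.198 over 15 pairs. The 30 pairs of libraries within groups all differed beyond counting noise, with chi-square values per degree of freedom between 10.4 and 119. The labels do not say that the samples of a line came from separate mice, so the p-values cover only the spread between samples, which may be technical. Alternatives were other scaling and filters, DESeq2 1.42.0, limma voom (limma 3.58.1) with sample weights, fits of fewer libraries, covariates and a replicate block.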

Additional observations from a re-analysis of the deposited data

Results flagged for a closer look

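In 114 groups of 5 libraries checked, 8 had 1 library far from the other 4 by Dixon's test at 95%, which chance alone flags in about 1 in 20 groups. Of these, 3 concern measured subunits: Ndufa3 at 183.5 CPM in cS5Alo 5 against 278.8 to 301.8 CPM in the other cS5Alo libraries, Sdhc at 132 CPM in cS5Ahi 4 against 114.6 to 118.9 CPM, and Atp5j at 64.93 CPM in cS5Ahi 1 against 43.46 to 49.58 CPM. The mean log2 CPM of complex I was 5.657 in cS5Alo 5 against 6.10 to 6.274 in the other cS5Alo libraries, and that of complex IV 5.837 against 6.25 to 6.411. The other 3 rest on a read or 2 in a single library: Cox8b at 0.06579 CPM in WT 1 and at 0.03652 CPM in cS5Alo 2, and Ndufa4l2 at 0.04459 CPM in cS5Ahi 3, where the other libraries of the group had none.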

How the results depend on the processing

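None of the 6 called genes changed direction under any alternative run. Medians and genes without a call did: 8 of the 15 medians by complex had another sign under at least 1 alternative, most often that of complex IV in cS5Ahi against WT (15 of 27), and Atp5g1 in cS5Ahi against WT fell below 0 with library size as the sole scaling. For cS5Ahi against WT, where 2 members were called, the count was 1 with library size as the sole scaling, which moved the median of all genes to -0.09, 6 with DESeq2 (5 higher and 1 lower), 4 with limma voom, and 0 with the B cell covariate, without WT 3 and WT 4, and without WT 3, WT 4 and cS5Ahi 4. The shares of all genes called were 14.9, 17.8, 11.7, 3.24, 9.9 and 8.89% in that order, beside 14.1% in the main fit. For cS5Ahi against cS5Alo, where 4 were called, it was 2 without a filter, 11 of 80 with limma voom (all lower), 2 with the B cell covariate, and 2 without WT 3, WT 4 and cS5Ahi 4. Here the shares of all genes called were 5.01, 21.3, 3.44 and 9% in that order, beside 8.64% in the main fit. The setting without WT 3, WT 4 and cS5Ahi 4 was chosen after seeing the data. The replicate block gave 2 calls for cS5Ahi against WT, 0 for cS5Alo against WT and 1 for cS5Ahi against cS5Alo. Beside these stood 10.5, 0 and 6.07% of all genes. No library correlated best with another of its own number (0 of 15). Leaving out 1 library at a time gave 1 to 6 calls for cS5Ahi against WT (5 without WT 1, 6 without WT 5 or cS5Alo 5, 4 without cS5Ahi 4, 1 without WT 2, WT 3 or cS5Ahi 1) and 1 to 6 for cS5Ahi against cS5Alo (6 without cS5Alo 5, 1 without cS5Alo 3 or 4 or cS5Ahi 2, 3 or 5, 2 without cS5Ahi 4). Of all genes, these fits called 10.3 to 15.8% in cS5Ahi against WT and 6.34 to 9.63% in cS5Ahi against cS5Alo. For cS5Alo against WT every alternative gave 0 members. The cause of these shifts was not tested. With 5 libraries a group and this spread, small differences are hard to tell from none: the median standard error of the members was 0.16 on the log2 scale in cS5Ahi against WT.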
